A study of Rattus norvegicus with 32 samples.

Results

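The comparison described here sets CA3 neurons of rats that received carbenoxolone before traumatic brain injury (TBI+CB) against CA3 neurons of sham-injured rats, both collected at 4 h. It was chosen to look at what was left of the injury response at 4 h under the drug. Effects of the drug itself cannot be separated from that response here. Its members were taken by their labels, 2 pools of TBI+CB and 2 pools of sham, each hybridized to 2 duplicate arrays, so that 4 of the 16 pools and 8 of the 32 arrays of the series were compared. The other pools used below are TBI alone at 4 h, TBI with metyrapone (TBI+MT) at 4 h and sham at 24 h, with 2 pools on 4 arrays each. A pool held RNA of 3 to 6 rats per the labels, and the methods of the study give 3.

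All rats were adult male Sprague-Dawley rats, a common outbred laboratory strain. Injury was a moderate fluid percussion, a fluid pulse onto the exposed dura, and sham rats had the surgery without the pulse. Carbenoxolone was injected under the skin at 30 mg/kg, and metyrapone, the comparison drug of the same study, was given at 100 mg/kg. The labels place the injection 90 min before injury and the methods place it 30 min before. The labels call the sham rats of 4 h untreated, whereas the methods give them saline. No rat was given carbenoxolone without injury in the samples used here, so the drug and the injury differ together between the groups compared. Neurons were cut by laser from the injured side, and only neurons that Fluoro-Jade, a dye for degenerating neurons, did not stain were taken. Cells that had started to degenerate by 4 h are therefore outside the measurement. In pooled tissue RNA, fewer cells of a type and less RNA per cell cannot be told apart.

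CA3 pyramidal neurons are the excitatory output cells of the hippocampal CA3 field and express many receptors for corticosterone, the stress steroid of the rat. Carbenoxolone, a derivative of glycyrrhetinic acid, inhibits the 11-beta-hydroxysteroid dehydrogenases, which interconvert corticosterone and its inactive keto form, and it also blocks gap junction channels. Metyrapone lowers corticosterone by inhibiting its synthesis in the adrenal gland. Within minutes of strong excitation or injury, neurons transcribe immediate early genes such as Fos and Egr1, whose products in turn regulate later genes, and injured brain tissue makes cytokines, chemokines and acute phase proteins in the following hours.

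Levels are given as multiples of the array median, the signal of a probe divided by the median signal of its array, with the 2 duplicate arrays of a pool averaged. Differences are log2 differences of group means, TBI+CB minus sham, with their standard error (SE) from a linear model over all 16 pools (limma). The arrays of sham had 49.97 to 52.67% of their probes above background, those of TBI+CB pool 1 had 41.31 and 42.08%, and those of pool 2 had 50.23 and 50.9%. The pools of a group correlated with r = 0.918 for sham and 0.927 for TBI+CB over probes. Slide numbers in the file headers fall into 3 series, here taken as slide runs. Both sham pools and TBI pool 1 lay in 1 run, and TBI+CB lay with TBI pool 2, TBI+MT and sham of 24 h in another, so that drug with injury and slide run cannot be told apart by a comparison within a run. As a check of the labelled cell type, 7 of 18 pyramidal neuron markers were kept, with a summed level of 1400 and 1419 in sham and 1563 and 1221 in TBI+CB. Neurod2, Lmo3 and Snap25 had a probe that was not kept, and the other 8 had none. Slc17a7, the vesicular glutamate transporter of these cells, was at 20.8 and 22.9 in sham and at 23.7 and 18.2 in TBI+CB. Markers of other cells were measured too. The summed level of 12 astrocyte markers was 452 and 905 in sham and 689 and 598 in TBI+CB, and that of 8 oligodendrocyte markers was 130 and 308 against 250 and 200, with sham pool 2 the highest in both.

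Of 17597 probes tested, 0 (0.0%) passed an adjusted p of 0.05 by limma with Benjamini-Hochberg adjustment, and 515 (2.93%) had an unadjusted p under 0.05. The smallest adjusted p was 0.229. Every difference below is thus a measured value that did not pass the test across all probes. With 2 pools a group the median SE was 0.73 on the log2 scale. The SE and p-values rest on the spread between pools within all 8 groups, moderated across probes, and not on the 4 pools compared alone. That spread was uneven. The standard deviation of the log2 difference between pools was 0.911 in sham and 0.885 in TBI+CB, but 1.68 in TBI+MT at 24 h. Differences over 2-fold were counted as a description. They were found for 777 probes higher in TBI+CB (4.42%) and for 1495 probes lower (8.5%), and without sham pool 2 the higher probes numbered 1420. The 2-fold rule of the study's methods, with all 4 arrays of each group within 2-fold of each other, left 11057 probes, of which 209 (1.89%) were higher and 158 (1.43%) lower. Without sham pool 2 these counts were 881 and 481, and without sham pool 1, with as many arrays left, 388 and 416.

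Among 8224 genes with a symbol, 259 (3.15%) were over 2-fold higher in TBI+CB than in sham and 536 (6.52%) were over 2-fold lower. TBI alone, set against the same sham pools, had 1282 genes (15.6%) over 2-fold higher and 405 (4.92%) lower. In the direct comparison of TBI+CB with TBI, 249 genes (3.03%) were over 2-fold higher under the drug and 1345 (16.4%) lower, with 0 probes passing the adjusted test and 606 at an unadjusted p under 0.05. The median log2 difference of all probes was 0.33 for TBI against sham and -0.28 for TBI+CB against TBI. For TBI+CB against sham it was 0.07. These shifts of the whole distribution enter the counts with TBI, whose 2 pools correlated with r = 0.863, and their cause was not tested. TBI pool 1 lay in the slide run of sham and TBI pool 2 in that of TBI+CB. An unadjusted p under 0.05 was reached by 70 named genes (0.851%) higher and 104 (1.26%) lower in TBI+CB than in sham. Both TBI+CB pools lay above both sham pools for 1761 genes (21.4%), and both lay below them for 1624 (19.7%).

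The immediate early transcription factors were the list with the highest median among the 47 gene lists examined. Of its 23 members 19 had a probe and 16 were measured above background in at least 1 group, while Egr2, Egr3 and Npas4 were not kept by that filter. Of the 16, 15 were higher in TBI+CB, 6 of them by over 2-fold, and 1 was lower, and 10 had both TBI+CB pools above both sham pools. Of all named genes, 3.15% were over 2-fold higher and 21.4% had both TBI+CB pools above both sham pools. A gene bright only after injury passes the filter, which bears on the counts of the list. The median difference was 0.86 above that of all probes, and 0.74 without the filter. It was 0.41 without sham pool 1 and 1.18 without sham pool 2.

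Fos, which forms the AP-1 transcription factor with Jun proteins, was at 1.83 and 13.0 in the sham pools and at 51.4 and 60.9 in the TBI+CB pools. The groups did not overlap, although the sham pools lay far apart. Fos was 11.5-fold higher in TBI+CB, a log2 difference of 3.52 (SE 1.05, unadjusted p = 0.00571, adjusted p = 1.00, limma). TBI alone had 37.1 and 25.9, also below both TBI+CB pools, and TBI+MT had 8.20 and 14.0. The direct difference between TBI+CB and TBI was 0.85. Without sham pool 1 the difference from sham was 2.11 and without sham pool 2 it was 4.93, and another Fos probe had 1.71 (SE 0.77).

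Egr4, a zinc finger factor of the early growth response family, was at 25.6 and 20.9 in sham and at 77.3 and 89.9 in TBI+CB, 3.60-fold higher (log2 1.85, SE 0.63, unadjusted p = 0.0124). In TBI it was at 82.5 and 105, and its difference between TBI+CB and TBI was -0.16. Egr1, the family's best known member, was at 49.4 and 46.6 in sham and at 179 and 160 in TBI+CB (log2 1.82). Klf10, a zinc finger factor first described as a gene induced by transforming growth factor beta, was at 21.6 and 21.3 in sham and at 89.5 and 81.8 in TBI+CB (log2 2.00, SE 0.97). For these 3 genes the TBI+CB pools stood together and well above sham. TBI lay around or above them, with Egr1 at 185 and 283 and Klf10 at 85.0 and 176.

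Ier3, an immediate early gene tied to cell survival, was at 1.74 and 7.70 in sham against 14.2 and 19.7 in TBI+CB (log2 2.19). Nr4a3, an orphan nuclear receptor, was at 114 and 119 against 223 and 233, and Ier5 was at 2.01 and 2.51 against 4.68 and 4.76. Atf3, a stress-induced factor, was at 3.06 and 6.49 against 10.2 and 7.46 (log2 0.97). Jun was at 7.53 and 7.77 in sham and at 9.0 and 6.96 in TBI+CB, so that its groups overlapped. Klf4, a growth-arrest factor, was the 1 member that was lower, at 7.21 and 7.73 in sham and 2.92 and 3.22 in TBI+CB (log2 -1.28). Between TBI+CB and TBI no member of the list differed by over 2-fold, where 3.03% of all named genes were higher and 16.4% lower by that much. Against the same sham pools 8 of 16 were over 2-fold higher in TBI and 6 of 16 in TBI+CB. The shares of all named genes there were 15.6% and 3.15%.

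**Figure D1:**
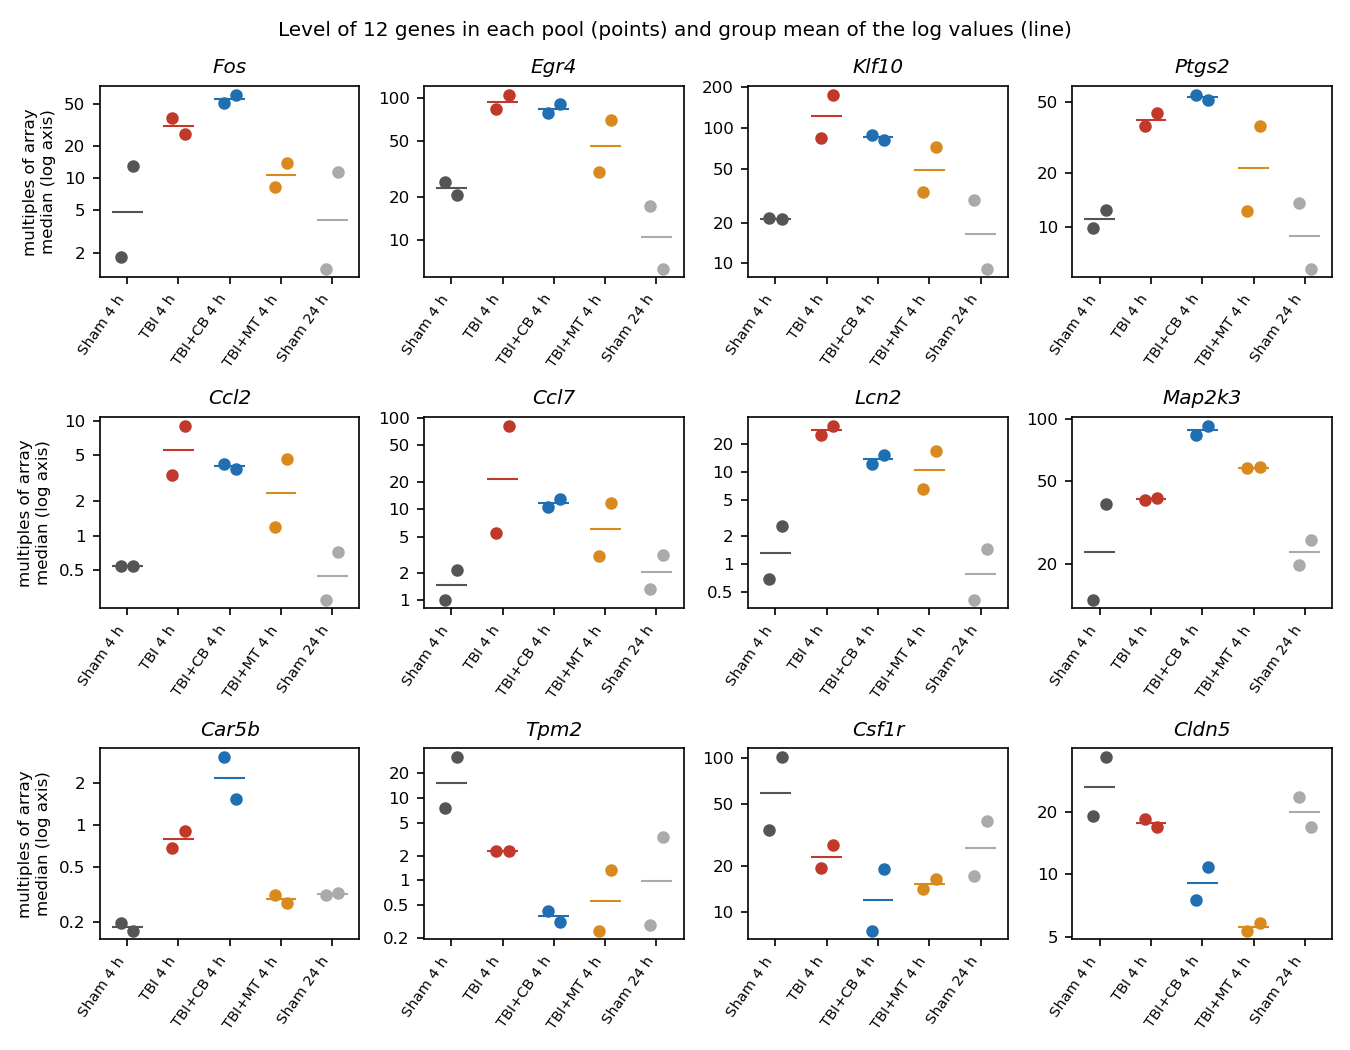
Level of 12 genes in each pool of sham, TBI, TBI+CB and TBI+MT at 4 h and of sham at 24 h, as multiples of the array median on a log axis, with each point a pool. Fos, Egr4, Klf10, Ptgs2, Ccl2, Ccl7, Lcn2, Map2k3 and Car5b have both TBI+CB pools above both sham pools of 4 h, and Tpm2, Csf1r and Cldn5 have both below.

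The activity-regulated effector genes, which neurons switch on after synaptic activity and which act on synapses, signalling and secretion, showed the same side. Of 23 members 21 had a probe and 12 were kept, among the rest Bdnf and Nptx2, which were not. All 12 kept were higher in TBI+CB, 5 by over 2-fold (3.15% of all named genes). A gene bright only after injury passes the filter, which bears on this count. Both TBI+CB pools lay above both sham pools for 10 (21.4% of all named genes). The median was 0.70 above all probes, 0.43 without the filter, and 0.63 to 0.88 when 1 pool was left out. Ptgs2, the inducible cyclooxygenase that makes prostaglandin precursors, was at 9.87 and 12.5 in sham and at 55.2 and 51.9 in TBI+CB, 4.82-fold higher (log2 2.27, SE 0.81, unadjusted p = 0.0163). Both TBI+CB pools were also above TBI, at 36.7 and 43.3, where the direct difference was 0.42. TBI+MT was at 12.4 and 37.0.

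Rgs2, which speeds the turning off of G protein signals, was at 23.0 and 30.7 in sham and at 103 and 93.7 in TBI+CB (log2 1.89, SE 0.98). Cdkn1a, the cell cycle inhibitor p21, was at 4.07 and 20.9 against 32.8 and 32.2, and Arc, which removes glutamate receptors from synapses, was at 10.5 and 15.9 against 28.7 and 29.6. Vgf, a secreted neuropeptide precursor, was at 34.5 and 40.2 in sham and at 70.3 and 75.2 in TBI+CB (log2 0.96), with TBI at 85.8 and 97.7. Homer1, a scaffold of the postsynaptic density, was at 71.5 and 68.1 against 107 and 99.3 (log2 0.56), and its sign turned when slide run was a fixed block (-0.86). Another Homer1 probe had a log2 difference of 1.79 (SE 0.88). No member differed by over 2-fold between TBI+CB and TBI, where 3.03% of all named genes were higher and 16.4% lower by that much. The list's median there was -0.01 relative to all probes.

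Genes of both lists are classic targets of CREB, a factor that binds the cyclic AMP response element, and 2 promoters that hold its motif are shown, while the window of Ptgs2, searched too, held neither the element nor its half-site nor the AP-1 site. The windows reach from 250 bases before to 50 after the transcription start, from RefSeq on GRCr8. Capitals mark, for Egr4 (chr4:119607768-119608067, minus strand), the half-site TGACG read on the other strand as CGTCA, and for Vgf (chr12:25276971-25277270, minus strand) the full element TGACGTCA. Both genes and the half-site were chosen after values were seen.
Egr4: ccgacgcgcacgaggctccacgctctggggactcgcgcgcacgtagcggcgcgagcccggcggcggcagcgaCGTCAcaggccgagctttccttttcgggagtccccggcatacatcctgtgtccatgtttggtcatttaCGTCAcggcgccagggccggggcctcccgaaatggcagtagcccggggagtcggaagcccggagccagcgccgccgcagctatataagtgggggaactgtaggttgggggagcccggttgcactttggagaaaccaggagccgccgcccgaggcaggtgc
Vgf: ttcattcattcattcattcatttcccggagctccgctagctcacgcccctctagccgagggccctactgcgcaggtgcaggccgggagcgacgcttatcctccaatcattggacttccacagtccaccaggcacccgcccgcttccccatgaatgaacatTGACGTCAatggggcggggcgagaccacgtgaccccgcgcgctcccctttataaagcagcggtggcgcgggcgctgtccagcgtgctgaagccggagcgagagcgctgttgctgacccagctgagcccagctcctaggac

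The half-sites of Egr4 began 178 and 110 bases before its start, and the element of Vgf began 90 bases before. A window was available for 10 of the 16 kept immediate early genes, 9 of the 12 activity-regulated genes and 11 of the 16 inflammatory genes. Fos, Klf10, Arc and Ccl2 had no window and were not searched. With both strands searched, the full element was in the window of 2 of 10 immediate early genes (20.0%; Ier2 and Jund) and of 3 of 9 activity-regulated genes (33.3%; Dusp1, Scg2 and Vgf), against 3.11% of 6824 named genes tested with a window and 2.0% of all 27457. The half-site, which every full element also holds, was in 8 of the 10 (80.0%) and 7 of the 9 (77.8%), against 32.6% of the named genes tested. The AP-1 site TGACTCA was in 0 of the 10 and 0 of the 9, against 3.63%. Among 11 inflammatory genes the full element was in 0, the half-site in 2 (18.2%) and the AP-1 site in 2 (18.2%; Cxcl11 and Il1a). A match of letters is a description of the window and shows no binding.

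Of the inflammatory cytokine and chemokine genes, 24 of 26 had a probe and 16 were kept, whereas Il6, Ccl3, Ccl5, Cxcl2 and Cxcl10 were among those not kept. Of the 16, 15 were higher in TBI+CB than in sham, 6 by over 2-fold and 4 at an unadjusted p under 0.05 (limma). The shares of all named genes were 3.15% and 0.851%. Both TBI+CB pools lay above both sham pools for 10, against 21.4% of all named genes. The filter keeps a gene that is above background in any 1 group, so genes bright only after injury are among the 16 and bear on the count. The median was 0.50 above all probes, and 0.26 without the filter. It was 0.38 to 0.80 with 1 pool left out, and 0.15 with slide run as a fixed block. Many were near background. For a gene not above background in 1 group, the fold is a bound, the mean of the brighter group against the higher of the probe's own signal and the dimmest signal counted above background on each array of the other.

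Ccl2 encodes a chemokine for monocytes and was at 0.547 and 0.540 in sham, above background on 0 of 4 arrays, and at 4.24 and 3.80 in TBI+CB, above background on all 4. It was at least 5.54-fold higher in TBI+CB (log2 2.88 as measured, SE 0.79, unadjusted p = 0.00329, adjusted p = 1.00, limma). TBI had 3.4 and 9.09 and TBI+MT 1.19 and 4.61. The TBI+CB pools thus lay between the 2 TBI pools, with a direct difference of -0.47.

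Ccl7, a related monocyte chemokine, was at 1.01 and 2.16 in sham and at 10.6 and 12.8 in TBI+CB, 7.88-fold higher (log2 2.98, SE 1.14). Its TBI pools were at 5.47 and 82.0, and with slide run as a fixed block its difference turned to -0.93. Il1b, the cytokine interleukin 1 beta, was at 0.117 and 0.347 in sham and 1.31 and 1.51 in TBI+CB, at least 1.94-fold higher with 2 of the 4 TBI+CB arrays above background (adjusted p = 1.00, limma). TBI had 2.25 and 13.1 for Il1b, both above both TBI+CB pools, a direct difference of -1.95 (unadjusted p = 0.053, limma across all probes). Cxcl1, a neutrophil chemokine, was at 2.41 and 2.84 in sham and 7.76 and 7.72 in TBI+CB (log2 1.56), which turned to -1.03 with the same block, and its difference from TBI was -1.70. Sele, the endothelial adhesion molecule E-selectin, was at 0.124 and 0.794 against 1.78 and 1.44, at least 2.15-fold higher (adjusted p = 1.00, limma) with 3 of 4 TBI+CB arrays above background. Tnf differed less, at 2.01 and 3.66 against 4.6 and 4.11 (log2 0.68), and Il1a was the 1 member lower (-0.15). Against TBI, 2 members of the list were over 2-fold higher under carbenoxolone and 4 over 2-fold lower. The shares of all named genes there were 3.03% and 16.4%.

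**Figure D2:**
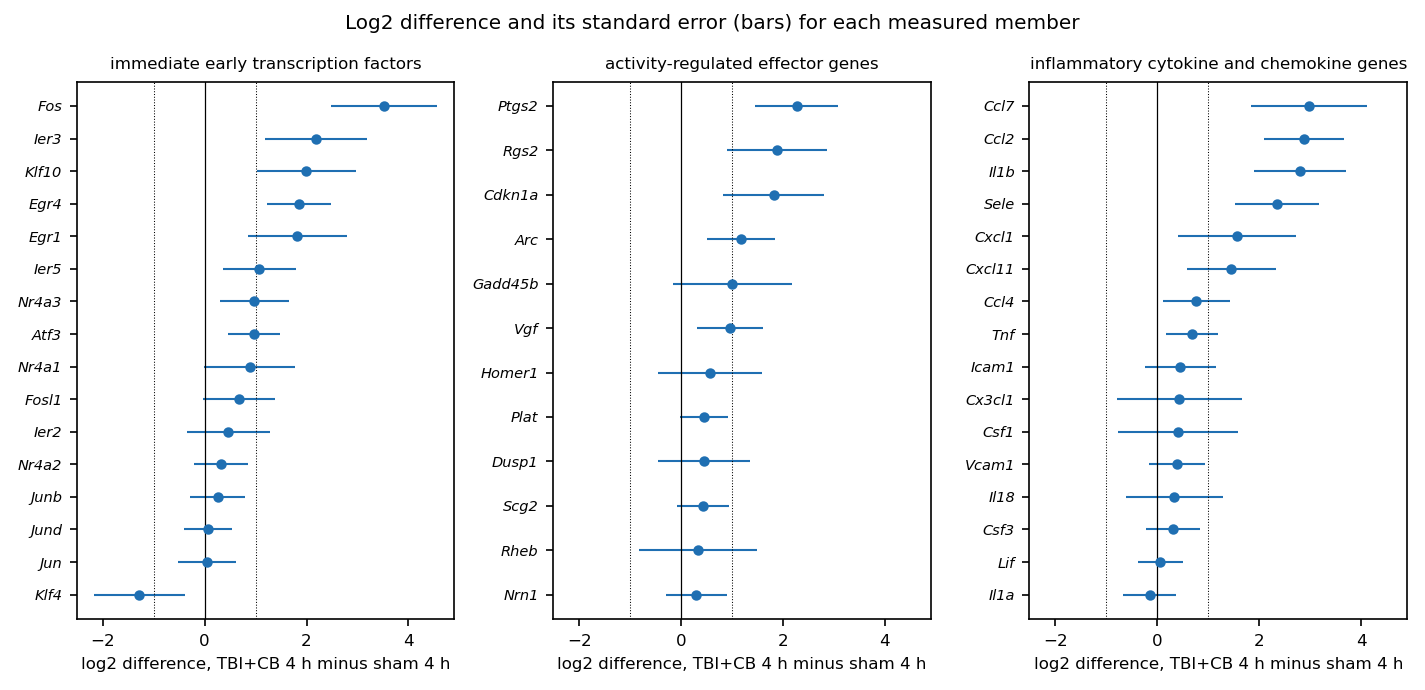
Log2 difference of TBI+CB minus sham at 4 h for the kept members of the immediate early, activity-regulated and inflammatory lists, with bars for 1 SE from limma. Nearly all points lie above 0, with Fos (3.52) the highest of the immediate early genes, Ptgs2 (2.27) of the activity-regulated genes and Ccl7 (2.98) of the inflammatory genes, and Klf4 (-1.28) the lowest of all.

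Acute phase and extracellular protease genes were mixed. Of 27 members 22 had a probe and 12 were kept by the same filter. Of the 12, 10 were higher in TBI+CB and 2 lower, 3 and 1 by over 2-fold. The shares of all named genes over 2-fold higher and lower were 3.15% and 6.52%. The median was 0.44 above all probes, and 0.36 without the filter. It ran from 0.22 without TBI+CB pool 1 to 0.62 without TBI+CB pool 2 and was 0.083 with slide run as a fixed block. Lcn2, the iron-binding acute phase protein lipocalin 2, was at 0.689 and 2.58 in sham and at 12.2 and 15.1 in TBI+CB (log2 3.35, SE 0.92, unadjusted p = 0.00353, limma), with sham above background on 2 of 4 arrays. TBI had 24.8 and 31.4 and TBI+MT 6.52 and 16.8, so that both TBI+CB pools lay between sham and TBI, with a direct difference from TBI of -1.04. Mmp9, a matrix-degrading protease, had the same order, at 2.41 and 1.85 in sham, 5.07 and 6.16 in TBI+CB and 6.83 and 12.1 in TBI. Cd14, a receptor for bacterial lipopolysaccharide, rested on 1 pool. It was at 0.129 and 4.66 in sham and 3.99 and 4.39 in TBI+CB, and without sham pool 1 its log2 difference of 2.43 became -0.16. Timp1, an inhibitor of matrix proteases, was lower in TBI+CB, at 15.3 and 7.63 against 4.82 and 5.82 (log2 -1.03), while TBI had 19.1 and 18.8. Against TBI, 0 members of the list were over 2-fold higher and 4 over 2-fold lower. The shares of all named genes there were 3.03% and 16.4%.

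The other genes with the smallest p on the higher side belong to no single list. Car5b, a mitochondrial carbonic anhydrase, had the smallest p of all. It was at 0.197 and 0.175 in sham, above background on 0 of 4 arrays, and at 3.09 and 1.53 in TBI+CB, above it on all 4, at least 3.01-fold higher (log2 3.55, SE 0.53, adjusted p = 0.229, limma). TBI, at 0.687 and 0.908, and TBI+MT, at 0.313 and 0.274, were lower than both TBI+CB pools, and the direct difference from TBI was 1.46 (unadjusted p = 0.0173).

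Map2k3, a kinase that activates p38, was at 13.4 and 38.9 in sham and at 84.2 and 93.1 in TBI+CB, 3.89-fold higher (log2 1.96, SE 0.55, unadjusted p = 0.00406). Its TBI pools were at 40.6 and 41.7 and its TBI+MT pools at 57.8 and 58.9, so that TBI+CB was highest of the 4 groups at 4 h, with a direct difference from TBI of 1.11 (unadjusted p = 0.0684, limma). Rab7b, a GTPase of endosomal transport, was at 0.407 and 0.354 against 2.63 and 3.05, at least 3.91-fold higher (adjusted p = 0.874, limma). Prickle3, a protein of planar cell polarity, was at 0.266 and 0.467 against 2.88 and 2.19, at least 3.47-fold higher (adjusted p = 1.00, limma). Both sham pools of these last genes were below background.

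Glis2, a zinc finger factor, was at 2.11 and 2.94 in sham and 9.08 and 13.1 in TBI+CB, with TBI at 10.7 and 17.0. Cacna2d2, an auxiliary subunit of calcium channels, was at 0.768 and 2.75 against 6.38 and 7.02, but sham of 24 h stood level with TBI+CB (log2 0.01). Serinc2, a serine incorporator protein, was at 12.4 and 34.0 against 59.1 and 67.5, and Metrnl, a secreted meteorin-like protein, at 0.855 and 0.515 against 2.11 and 2.26. Albfm1 was at 0.406 and 0.735 against 2.55 and 2.54, at least 3.38-fold higher (adjusted p = 1.00, limma). Against sham of 24 h Albfm1 was on the other side (-0.32).

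On the lower side the genes with the smallest p came from several lists or from none. Tpm2, a tropomyosin of muscle filaments, was at 7.48 and 31.6 in sham and at 0.426 and 0.313 in TBI+CB, above background on 4 and 0 arrays, at least 14.9-fold lower (log2 -5.40 as measured, SE 1.09, adjusted p = 0.782, limma). TBI was between, at 2.30 and 2.30. Myh11, the smooth muscle myosin heavy chain, was at 15.4 and 68.7 in sham and 0.376 and 2.81 in TBI+CB, above background on 4 and 2 arrays (log2 -4.99, SE 1.10, adjusted p = 0.874, limma). Myh11 was high in TBI too, at 10.5 and 33.3, and its direct difference from TBI was -4.18 (unadjusted p = 0.00252). Sham of 24 h was at 9.26 and 4.84.

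Pcolce, which enhances procollagen processing, was at 6.42 and 10.1 in sham and at 0.197 and 0.282 in TBI+CB, at least 7.80-fold lower (adjusted p = 0.874, limma), and TBI was at 0.128 and 0.404. Sema3f, a secreted axon guidance protein, was at 2.76 and 8.29 against 0.245 and 0.201, at least 4.63-fold lower (adjusted p = 0.874, limma). The extracellular matrix and integrin list as a whole had 11 members higher and 11 lower, with a median of -0.07 relative to all probes. Its member Lama1, a laminin chain of basement membranes, was at 1.75 and 1.68 against 0.1, the floor, and 0.238, at least 1.66-fold lower (adjusted p = 0.874, limma). The sham pools of 4 h stood alone in Pcolce, where sham of 24 h was level with TBI+CB (log2 -0.07).

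Bcl11b, a zinc finger factor of projection neurons, was at 4.15 and 2.66 in sham and at 0.1, the floor, and 0.441 in TBI+CB, at least 3.22-fold lower (log2 -3.98, SE 0.76, adjusted p = 0.782, limma). Here the other groups stood with sham, TBI+MT at 5.66 and 6.26 and sham of 24 h at 3.97 and 3.53, while TBI had 2.26 and 0.494. Cpsf6, a subunit of the pre-mRNA cleavage factor, was at 2.26 and 1.93 against 0.440 and 0.240, at least 2.02-fold lower (adjusted p = 0.782, limma), but its other probe had the opposite sign. The remaining genes named on this side, Srarp, Hspa12b, Ift70a2, Kcne2 and Gins1, were at least 1.18-fold to 2.59-fold lower in TBI+CB (adjusted p = 0.874 for each, limma). These 5, like Pcolce, Sema3f, Lama1, Bcl11b and Cpsf6, were above background on 4 of 4 sham arrays and 0 of 4 TBI+CB arrays.

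Vessel markers were lower as a list. Of 20 endothelium, pericyte and vessel wall genes 13 were kept. Of these, 9 were lower in TBI+CB, 5 by over 2-fold, and 4 were higher, none by over 2-fold. Both TBI+CB pools lay below both sham pools for 4 of the 13, against 19.7% of all named genes. Over 2-fold lower were 6.52% of all named genes. The median was -0.52 relative to all probes, but -1.17 without sham pool 1 and -0.01 without sham pool 2. The summed level was 122 and 251 in sham and 112 and 98.9 in TBI+CB, so that sham pool 2 stood apart. Tek, the endothelial receptor of angiopoietins, was at 4.83 and 7.73 in sham and 1.57 and 0.475 in TBI+CB, above background on 4 and 0 arrays, at least 5.56-fold lower (adjusted p = 1.00, limma), and TBI was at 0.916 and 0.286. Cldn5, a tight junction protein of brain endothelium, was at 19.0 and 36.6 against 7.58 and 10.9 (log2 -1.54, SE 0.55, unadjusted p = 0.0171), with TBI at 18.4 and 16.9 and TBI+MT at 5.38 and 5.83. Other markers did not follow, such as Cdh5, the endothelial cadherin, at 1.49 and 1.46 against 2.42 and 1.77.

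Microglia markers lay on the same side. Of 9 kept, 6 were lower and 3 higher in TBI+CB, 2 lower by over 2-fold, against 6.52% of all named genes. Both TBI+CB pools lay below both sham pools for 3 and above them for 1, against 19.7% and 21.4% of all named genes. The median was -0.41 relative to all probes. That median was -0.25 to -0.79 with 1 pool left out and -0.998 over probes above background on all 32 arrays. Csf1r, the receptor on which microglia depend, was at 34.1 and 102 in sham and 7.54 and 19.1 in TBI+CB, 4.92-fold lower (log2 -2.30, SE 0.66, unadjusted p = 0.00448), and TBI lay between, at 19.2 and 27.0. C1qb, a chain of complement C1q, was at 1.11 and 1.66 against 0.393 and 0.387, at least 1.31-fold lower (adjusted p = 1.00, limma). Aif1 and Itgam, markers of the same cells, overlapped between the groups. Cx3cr1, another, was higher in TBI+CB with separated pools, at 1.115 and 1.239 in sham against 2.126 and 1.495 (log2 0.60). The summed level of the list was 61.0 and 169 in sham and 34.1 and 51.5 in TBI+CB. The part of vessel cells, microglia and slide run in the lower genes, and in Sele, Lcn2 and the chemokines, was not tested.

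Of the corticosteroid enzyme and receptor list, with genes next to the drug's action, 6 were kept and none differed from sham by over 2-fold. Of all named genes, 3.15% were over 2-fold higher and 6.52% lower. Both TBI+CB pools lay above both sham pools for 2 of the 6 and below them for 1, against 21.4% and 19.7% of all named genes. The SE of Hsd11b1 and Fkbp4, given below, leave room for differences of 2-fold. Hsd11b1, the dehydrogenase that mostly regenerates corticosterone, was at 5.48 and 13.4 in sham and at 8.23 and 6.41 in TBI+CB, overlapping groups with a log2 difference of -0.24 (SE 0.88). TBI had 13.4 and 45.7, and the direct difference from TBI was -1.77 (unadjusted p = 0.0683, limma). Hsd11b2 was not kept. Nr3c1, the glucocorticoid receptor, was at 2.78 and 1.26 against 1.19 and 1.21 (log2 -0.64), and Nr3c2, the mineralocorticoid receptor, was at 56.9 and 56.6 against 74.9 and 72.8 (log2 0.38). The sign of both receptors turned with slide run as a fixed block, to 1.40 and -0.64. Fkbp4, a chaperone of the glucocorticoid receptor, was at 12.6 and 16.4 against 25.7 and 27.1 (log2 0.88, SE 1.10). Its TBI pools were at 23.8 and 1.09, so that its difference from TBI of 2.38 came from TBI pool 2.

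Genes that glucocorticoids induce were spread. Of 17 kept, 11 were higher and 6 lower in TBI+CB, 5 and 1 by over 2-fold. The shares of all named genes over 2-fold higher and lower were 3.15% and 6.52%. The list's median of 0.30 above all probes turned to -0.13 without sham pool 1. The usual reporter genes did not lie on one side. Fkbp5, a brake on the receptor, was at 212 and 196 against 203 and 156 (log2 -0.19, SE 0.61), Sgk1, a kinase, at 26.6 and 37.7 against 30.7 and 34.1 (log2 0.03, SE 0.83), and Tsc22d3, the leucine zipper protein GILZ, at 2.87 and 3.56 against 1.66 and 2.61 (log2 -0.62, SE 0.68). The highest member was Map3k6, a stress kinase, at 0.248 and 2.74 in sham and 7.72 and 25.0 in TBI+CB (log2 4.08, SE 1.53), with sham above background on 2 of 4 arrays. Pnpla2, the adipose triglyceride lipase, was lower, at 8.32 and 16.3 against 4.51 and 5.80 (log2 -1.19). Nfkbia, the inhibitor of NF-kB, was at 12.7 and 13.8 in sham, 19.7 and 21.5 in TBI+CB and 24.1 and 65.4 in TBI, and its difference from sham turned to -0.80 with slide run as a fixed block. Cflar, an inhibitor of caspase-8, was at 7.71 and 7.16 against 6.96 and 3.24, and below both TBI pools, at 12.4 and 19.0 (direct difference -1.70, unadjusted p = 0.0353, limma). Vegfa, the vascular growth factor, was at 19.2 and 37.8 in sham and 70.0 and 59.7 in TBI+CB (log2 1.26).

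Carbenoxolone blocks gap junction channels, so their genes were followed one by one. Of 21 genes, the connexins and pannexins with the scaffold gene Tjp1 (ZO-1), 14 had a probe and 8 were kept. None of the 8 differed by over 2-fold or had separated pools. Of all named genes only 3.15% were over 2-fold higher and 6.52% lower, shares at which 8 genes will often hold none. Both TBI+CB pools lay above both sham pools for 21.4% of all named genes and below them for 19.7%. Gja1, the main astrocyte connexin, was at 24.2 and 40.5 in sham and at 34.5 and 41.9 in TBI+CB (log2 0.28, SE 0.86). Gjb6, another astrocyte connexin, was at 14.8 and 40.2 against 15.0 and 14.0 (log2 -0.75, SE 0.59). The other 6, Gja4, Gja5, Gjb1, Panx2, Panx3 and Tjp1, had differences from -0.02 to 0.51 with SE from 0.46 to 0.96. These SE leave room for differences of 2-fold in most of them, and the neuronal connexin gene Gjd2 and Panx1 were not kept.

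**Figure D3:**
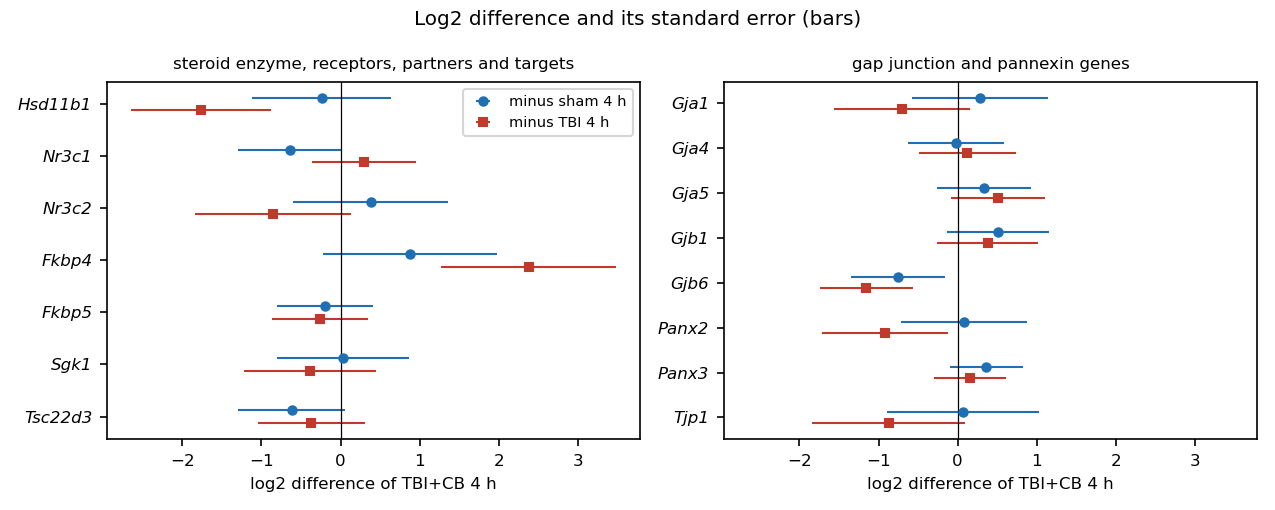
Log2 differences of TBI+CB minus sham and of TBI+CB minus TBI at 4 h, with bars for 1 SE from limma, for the corticosteroid enzyme, receptor, chaperone and reporter genes and for the kept connexin and pannexin genes and Tjp1. Against sham the points lie from -0.75 (Gjb6) to 0.88 (Fkbp4), and against TBI Hsd11b1 (-1.77) and Fkbp4 (2.38, where TBI pool 1 was near TBI+CB and pool 2 far below) lie farthest from 0.

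Among neuropeptide genes, Npy and Tac1 lay below TBI alone. Npy, which dampens excitation and is made by interneurons, was at 2.84 and 3.36 in sham and at 3.81 and 1.61 in TBI+CB, while TBI had 17.9 and 12.9 and TBI+MT 1.87 and 2.74. TBI+CB overlapped sham (log2 -0.32, SE 0.63) and was below TBI by 2.61 on the log2 scale (unadjusted p = 0.00141, adjusted p above 0.709, limma). Tac1, the precursor of substance P, had the same order, at 5.45 and 14.6 in sham, 2.13 and 4.70 in TBI+CB and 24.9 and 39.8 in TBI (direct difference -3.32, unadjusted p = 0.00276, limma). Sst, the interneuron peptide somatostatin, was at 1.19 and 1.55 against 0.967 and 1.19. The summed level of 8 interneuron markers was 88.0 and 149 in sham and 129 and 98.4 in TBI+CB, overlapping, and 105 and 148 in TBI. Between TBI+CB and TBI, 7 of these 8 markers, Npy and Sst among them, were lower, with a median of -0.57 relative to all probes. Of the 8 markers, 3 were over 2-fold lower, against 16.4% of all named genes. Their part in these values was not tested.

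The opioid precursors were lower than sham, although Penk turned to 1.17 with slide run as a fixed block. Penk was at 5.58 and 5.19 in sham and at 0.596 and 0.271 in TBI+CB, above background on 4 and 0 arrays, at least 5.20-fold lower (adjusted p = 1.00, limma), but the pools of TBI (4.73 and 0.156) and TBI+MT (0.620 and 5.06) lay on both sides. Pdyn was at 9.91 and 9.08 against 0.672 and 3.19 (log2 -2.70, SE 1.32). Of the 16 neuropeptide genes kept, 0 were over 2-fold higher and 5 over 2-fold lower, against 3.15% and 6.52% of all named genes. Both TBI+CB pools lay above both sham pools for 4 and below them for 4, against 21.4% and 19.7% of all named genes. The list median was 0.08 relative to all probes. Gfra2, the neurturin receptor, was at 1.02 and 12.7 in sham and 0.532 and 0.134 in TBI+CB, at least 3.49-fold lower (adjusted p = 1.00, limma), and 3.67 below TBI on the log2 scale.

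Housekeeping lists differed by less. Cytosolic ribosomal protein genes had 29 of 37 kept members lower and 8 higher, with a median of -0.32 relative to all probes. Of the 37, 3 were lower by over 2-fold, against 6.52% of all named genes. Complex I genes of the respiratory chain had 18 of 25 lower and 0 over 2-fold, with a median of -0.22, and ATP synthase genes had 11 of 12 lower, with -0.26. Proteasome subunit genes had 19 of 30 lower (-0.20). Against sham of 24 h the medians of these 4 lists, in the same order, had the other sign, 0.22, 0.23, 0.42 and 0.28. In the direct comparison with TBI the medians of these 4 lists were -0.33, -0.41, -0.47 and -0.37.

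Synaptic vesicle and SNARE genes had 14 of 20 lower (median -0.31), which turned to 0.26 with slide run as a fixed block, and glutamate receptor and scaffold genes had 15 of 20 higher (0.10). Potassium channel genes had 16 of 22 higher, with a median of 0.32 that became -0.13 without TBI+CB pool 1. Genes of cyclic AMP, protein kinase A and CREB had 17 of 18 higher, 2 by over 2-fold. The shares of all named genes were 52.7% and 3.15%. Both TBI+CB pools lay above both sham pools for 4 and below them for 1, against 21.4% and 19.7% of all named genes. The list median was 0.26, but 0.047 with slide run as a fixed block and 0.0090 without a filter. Prkar1b, a regulatory subunit of protein kinase A, was at 10.3 and 9.68 in sham and 21.1 and 19.2 in TBI+CB (log2 1.01, SE 0.44, unadjusted p = 0.0397). Heat shock and chaperone genes had 2 of 14 kept members over 2-fold higher and 3 over 2-fold lower. Of all named genes, 3.15% and 6.52% were. Bag3, a co-chaperone, was at 2.12 and 5.55 against 9.61 and 16.3, and Hspb2, a small heat shock protein of muscle, was at 3.92 and 3.30 against 0.274 and 0.215, at least 3.48-fold lower (adjusted p = 0.874, limma).

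**Figure D4:**
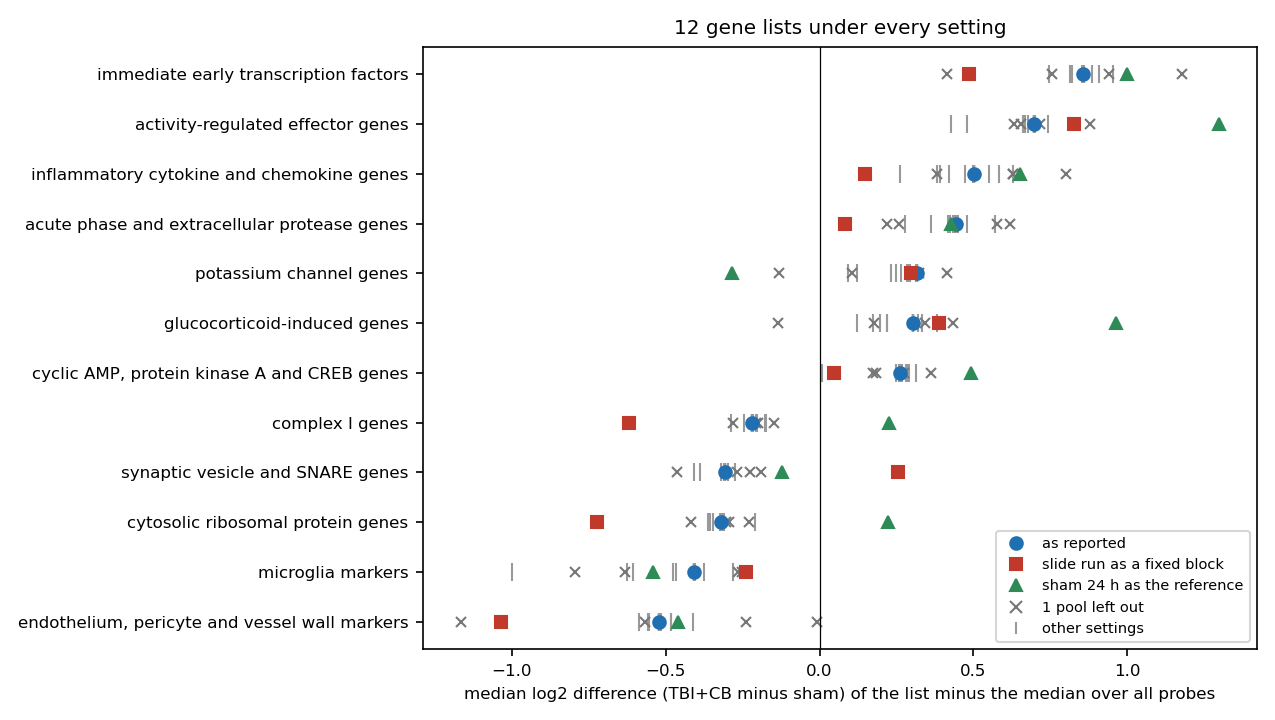
Median log2 difference of TBI+CB minus sham at 4 h relative to the median of all probes for 12 gene lists, with a point for each way of processing the data, including each left-out pool. The immediate early list stays above 0 throughout (0.41 without sham pool 1 to 1.18 without sham pool 2), and the glucocorticoid, potassium channel, ribosomal, complex I and synaptic vesicle lists cross 0.

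The only sham pools in the slide run of TBI+CB were those of 24 h, whose time differs. Against them 0 probes passed the adjusted test and 699 had an unadjusted p under 0.05 (smallest adjusted p = 0.167, limma). The differences of Fos (3.79), Egr4 (2.99), Egr1 (2.61), Ptgs2 (2.58), Ccl2 (3.18), Lcn2 (4.13), Car5b (2.78) and Map2k3 (1.97) kept their sign, as did those of Tek (-2.94), Bcl11b (-4.15) and Myh11 (-2.70), while Pcolce (-0.07) and Sele (0.36) came close to 0. The list medians were 1.00 for immediate early, 1.30 for activity-regulated, 0.65 for inflammatory and 0.43 for acute phase genes. Whether the difference of TBI+CB from sham changed between 4 and 24 h was tested as an interaction, and 0 probes passed (885 at an unadjusted p under 0.05, smallest adjusted p = 0.241, limma).

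Genes over 2-fold between TBI and sham at 24 h, measured in pools that the 4 h comparison does not use, were looked up in it. Among 347 genes higher at 24 h, 41 (11.8%) lay over 2-fold above sham in TBI+CB at 4 h and 84 (24.2%) over 2-fold lower. Among 330 genes lower at 24 h, 13 (3.94%) were over 2-fold higher and 77 (23.3%) over 2-fold lower. The medians were -0.14 and -0.27, against 0.03 for all named genes. Both sets thus held larger shares over 2-fold lower than the 6.52% of all named genes. Both also held larger shares over 2-fold higher than their 3.15%, the second by little. In TBI against sham at 24 h 0 probes passed the adjusted test (limma), so the sets were chosen by fold alone. Whether they hold more variable probes was not tested. Between TBI+CB and TBI+MT at 4 h, 0 probes passed the adjusted test and 548 had an unadjusted p under 0.05 by limma.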

How the data were processed

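RNA of laser-captured CA3 neurons, amplified in 2 rounds, was hybridized to 1-colour CodeLink rat arrays. The deposited spot intensity comes from the scanner software. No file states that background was subtracted, and values below 0 are the only sign of it. The authors' deposited value table holds each spot as a ratio to the array median and served as an alternative. Here intensities over the array median were floored at 0.1 and taken to log2, so differences of dim genes are understated. Irregular and masked spots were left out, duplicate arrays were averaged, and a probe was kept if some group had it above background on each of its 4 arrays (17635 of 33849). Of all probes, 16878 have 1 gene symbol, 182 several and 16789 are unnamed here, and each gene is shown by its probe with the highest mean. One fit over all 16 pools with a mean per group was made with limma 3.58.1 in R 4.3.3 (8 residual degrees of freedom), with Benjamini-Hochberg adjustment over all probes tested. It was tested on simulated data. The number of arrays limits the precision.

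Named genes were the 12 with the smallest p on each side (predicted symbols and genes not above background on all 4 arrays of 1 of the groups left out), the 4 of each of 47 gene lists with the smallest p, a set of steroid and reporter genes and all kept gap junction genes. Only a part of these is printed. List members named beyond that, among them Egr1, Vgf, Nr4a3, Ier5, Atf3, Klf4, Jun, Homer1, Cxcl1, Tnf, Il1a and Cdh5, were chosen after their values were seen. The comparison and the lists were chosen with earlier results of these data known. The scaling, value table, floor, filter, irregular spots, use of duplicates, variance trend, groups fitted, slide run, reference sham, replicate block, probe choice and each left-out pool were varied.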

Additional observations from a re-analysis of the deposited data

How the results depend on the processing

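The 100 genes with followed values and 12 gene lists were recomputed under each alternative. For 62 genes and 7 lists no alternative changed the sign. The normexp background correction was not run, since the files hold no separate spot and background columns. For counts under an adjusted p of 0.05 (limma), array b only gave 1 probe and all 32 arrays with pool as a random block gave 2, both lower, against 0 otherwise, and leaving out 1 pool gave 0. Probes over 2-fold higher (777) numbered 3170 without a filter, 68 when above background on all 32 arrays, 509 when above background in 1 of the groups compared, 2244 with slide run as a fixed block, 2743 against sham of 24 h, and 864 to 1420 with 1 pool left out. Probes over 2-fold lower (1495) numbered 2455, 105 and 3119 without a filter, on all 32 arrays and with the run block, and 1440 to 1922 with 1 pool left out. By the methods' rule, the 209 higher and 158 lower probes became 36 and 48 on all 32 arrays, 345 and 387 with array a, 402 and 319 with array b, 815 and 1368 with the run block, and 372 to 881 and 416 to 657 with 1 pool left out. With the replicate number as a block, 0 probes were called and 501 had an unadjusted p under 0.05. Same-numbered pools of the groups compared deviated with r = -0.0325, so the numbers were not taken to pair the pools.

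Signs turned as follows, and the cause was not tested. With slide run as a fixed block, where the groups are linked only through the TBI pools and the median of all probes moved to -0.30, log2 differences were Ccl7 -0.93, Cxcl1 -1.03, Ccl4 -0.20, Homer1 -0.86, Nrn1 -0.58, Rheb -0.30, Nr4a1 -0.15, Nfkbia -0.80, A2m 1.61, Nr3c1 1.40, Nr3c2 -0.64, Sgk1 -0.74, Tsc22d3 0.35, Gja1 -0.67, Gja5 -0.58, Gjb1 -0.23, Panx2 -1.01, Panx3 -0.21, Tjp1 -0.69, Penk 1.17, Npy 0.16, Hspb8 -0.53, Cdh5 -0.23 and Ttr -5.52, and the synaptic vesicle median 0.26. Against sham of 24 h they were Albfm1 -0.32, Hsd11b1 0.35, Fkbp5 0.34, Tsc22d3 0.58, Gjb6 0.61, Gja5 -0.12, Gjb1 -0.19, Panx3 -0.16, Laptm5 0.67, Tac1 0.74, Cdh5 -0.30 and Hspb1 0.10, and the ribosomal, complex I and potassium channel medians 0.22, 0.23 and -0.28. Sgk1 was -0.015 with slide run as a random block and -0.034 with array a, where Jun was -0.032 and Tjp1 -0.013. Gja4 was 0.11 with array b and 0.0092 after quantile normalization, and Il1a 0.64 as the median over its probes. With 1 pool left out, where the lone pool is assumed to vary like the other groups, values ran from -0.16 to 5.01 for Cd14, -0.89 to 0.41 for Hsd11b1, -0.22 to 0.28 for Sgk1, -0.091 to 0.65 for Gja1, -0.46 to 0.43 for Gja4, -0.022 to 0.69 for Gja5, -0.42 to 0.58 for Panx2, -0.25 to 0.39 for Tjp1, -4.29 to 0.12 for Tie1, -2.59 to 0.12 for Vip, -0.94 to 0.30 for Npy, -0.14 to 0.24 for Jun, -0.021 to 2.93 for Cxcl11, -0.31 to 0.0064 for Il1a, and -0.13 to 0.43 for the glucocorticoid-induced and -0.13 to 0.41 for the potassium channel medians.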
